A study of Rattus norvegicus with 99 samples.

Results

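Rcan1, a feedback target of the phosphatase calcineurin, and the hypertrophic transcription factor genes Nfatc3, Nfatc4, Gata4, Gata6, Mef2a, Mef2d, Srf and Myocd were examined by RNA-seq of whole heart tissue from rats. The members were chosen by gene symbol: 10 genes were named, 9 of them are among the 17337 genes of the count table, and Mef2c was not analysed here. All 9 passed the filter on low counts. The 99 libraries came from 33 male F1 rats (female Wistar Kyoto x male Lewis), each of which gave a left ventricle (LV), a septum (Spt) and a right ventricle (RV) library. Clips that did not yet constrict were set around the pulmonary artery (PAB, which loads the RV) or the aorta (AOB, which loads the LV) of young rats, and the vessel narrowed as the animals grew. All controls were sham-operated. In the compensated stage there were 7 Sham-H, 7 PAB-H and 7 AOB-H animals, 11 weeks old and 7 weeks after surgery. The failing stage comprised the right-sided pair of groups, 3 PAB-F with 2 Sham-RF rats aged 27 weeks (21 weeks post-surgery), and the left-sided pair, 4 AOB-F with 3 Sham-LF rats aged 30 weeks (24 weeks post-surgery). Ages and times are those of the sample fields, and the free text of the labels states others.

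Calcineurin is a phosphatase that calcium and calmodulin switch on in the loaded cardiomyocyte. It removes phosphate from NFAT proteins, which then enter the nucleus and act with GATA4 and MEF2 on genes of cardiac growth. RCAN1 binds calcineurin and restrains it, and a transcript from an internal start of its gene is itself induced by NFAT, so Rcan1 mRNA is often read as a gauge of calcineurin activity. SRF binds CArG boxes of muscle genes, with myocardin as its coactivator. These factors are regulated largely through phosphorylation, localization and partners, which mRNA levels do not show.

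Library totals ran from 12057180 to 24197244 counts, and the lowest count of any member in any library was 93, for Myocd. Markers of ventricular cardiomyocytes led in every group, with sums over 7 genes of 37455 to 82467 CPM (counts scaled to library size with TMM factors), and the 3 atrial markers reached at most 1808 CPM. The chamber labels were checked by comparing, in each animal, the RV minus LV difference of 50 genes with that of the other animals. It ran opposite in 3 animals, at -1.08 times the others' mean in Sham-H replicate 6, -1.15 in PAB-H replicate 2 and -1.73 in AOB-H replicate 1, and in the other 30 it lay between 0.471 and 1.82. Here genes were ranked by difference over spread, a ranking adopted after one by size alone had been seen. The latter put the same 3 animals below 0 and also AOB-F replicate 4 (-0.35) and PAB-H replicate 4 (-0.07). Labels were kept as given, so LV and RV mean libraries labelled so, and values of Rcan1 that moved without the 3 animals are given both ways.

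The sequence before a start of Rcan1 is shown because NFAT binds the core GGAAA. This RefSeq window lies on the minus strand at chr11:45118237-45118486 of GRCr8, inside the span of the gene, and the gene-level counts cannot separate transcripts from this and other starts. Capitals mark GGAAA on either strand.
Rcan1: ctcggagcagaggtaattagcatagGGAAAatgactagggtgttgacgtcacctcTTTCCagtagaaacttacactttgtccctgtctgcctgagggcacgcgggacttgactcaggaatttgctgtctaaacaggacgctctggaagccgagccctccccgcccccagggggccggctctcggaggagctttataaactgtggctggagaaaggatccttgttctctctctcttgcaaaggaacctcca
GGAAA occurs 2 times in these 250 bases, at 225 bases before the start and, on the opposite strand, at 195. Of 33469 windows of this length before rat gene starts, 56.9% hold it and 22.9% hold it 2 or more times.

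The windows of Srf and Mef2a are shown because each holds a site of the kind that its own product binds. Capitals mark CArG boxes in Srf (plus strand, GRCr8 chr9:21923826-21924075) and a MEF2 site in Mef2a (minus strand, GRCr8 chr1:130392163-130392412).
Srf: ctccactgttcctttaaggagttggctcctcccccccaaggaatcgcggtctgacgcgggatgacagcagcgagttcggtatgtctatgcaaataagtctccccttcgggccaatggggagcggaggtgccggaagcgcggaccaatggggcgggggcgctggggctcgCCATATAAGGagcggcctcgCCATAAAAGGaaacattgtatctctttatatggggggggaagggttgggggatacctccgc
Mef2a: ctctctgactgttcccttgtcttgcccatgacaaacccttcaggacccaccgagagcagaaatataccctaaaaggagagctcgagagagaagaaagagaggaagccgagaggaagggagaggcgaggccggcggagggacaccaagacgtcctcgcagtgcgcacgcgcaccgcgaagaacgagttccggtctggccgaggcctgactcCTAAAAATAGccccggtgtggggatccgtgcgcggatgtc
The CArG boxes of Srf lie 81 and 61 bases before the start, and 1.5% of all windows hold at least 1 and 0.0209% hold 2 or more. The MEF2 site of Mef2a lies 40 bases before the start, and 2.96% of windows hold such a site. Both strands were searched. RefSeq windows were at hand for 5 of the 10 named genes.

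Rcan1 was by far the most abundant member and Nfatc4 and Myocd were the scarcest. Over the 36 sham libraries Rcan1 had 159 ± 52.4 FPKM (mean and SD; per length), above 95.1% of the genes that passed the filter. Gata6 followed with 33.3 ± 5.60 FPKM, and Gata4 had 26.8 ± 3.99 FPKM. Gata6 exceeded Gata4 in 30 of 36 libraries. Srf, at 24.8 ± 2.67 FPKM, differed from Gata4 by less than the larger of their SDs. Gata4 exceeded Srf in 29 of 36 libraries. Mef2a (18.3 ± 4.17 FPKM) and Mef2d (17.8 ± 7.11 FPKM) could not be ordered, and each was the higher in 18 of 36 libraries. Of the NFAT genes, Nfatc3 had 7.96 ± 1.06 FPKM and exceeded Nfatc4, with 3.57 ± 0.499 FPKM, in 36 of 36 libraries. Myocd had 3.28 ± 1.21 FPKM and was not separated from Nfatc4 by more than the larger SD.

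**Figure D1:**
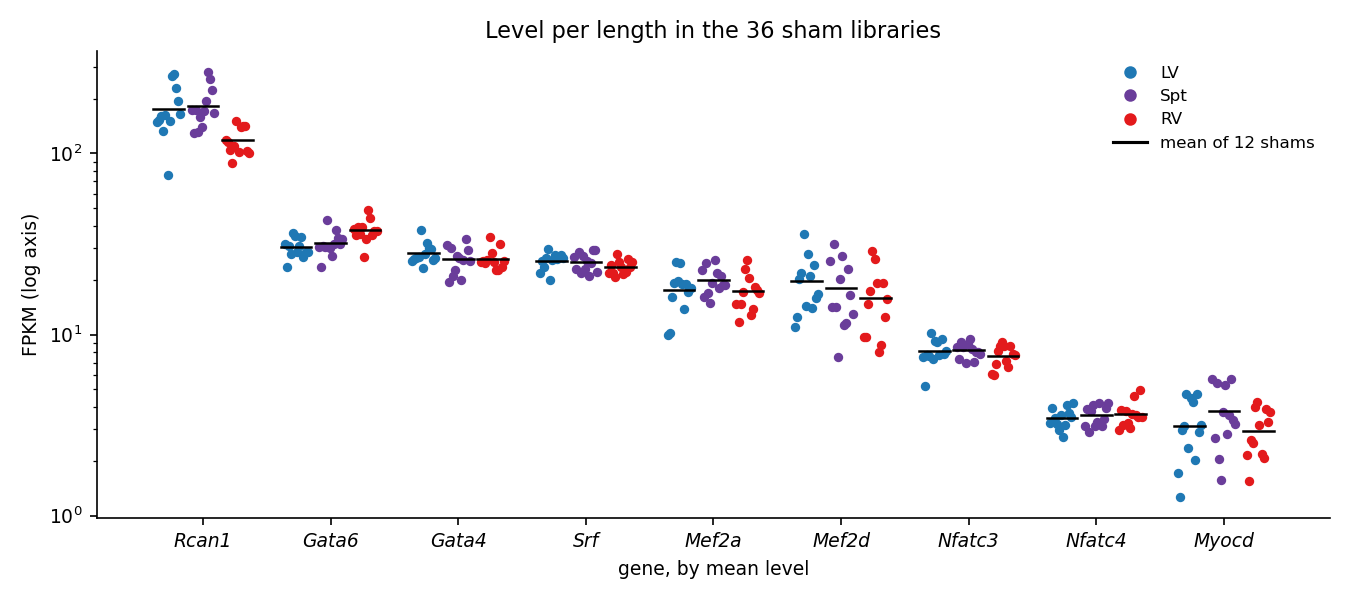
FPKM (log axis) of the 9 genes in the 36 sham libraries, ordered by mean level, with 12 animals in each of LV, Spt and RV and bars at the chamber means. Rcan1 lies above Gata6, the next gene, in 36 of 36 libraries, with its RV mean lowest, and Mef2d and Myocd spread most.

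Rcan1 was lower and Gata6 higher in the RV than in the LV of sham-operated rats. To find genes that distinguish the chambers without load, the 12 sham animals were compared, and 2 of 9 members passed an adjusted p of 0.05 in RV against LV (edgeR quasi-likelihood test, Benjamini-Hochberg adjustment), where 10.2% of all genes tested did. For Rcan1 the lowest, median and highest levels were 192, 240.5 and 322 CPM in RV and 163, 348 and 589 CPM in LV. The ranges overlapped, and within animals the RV was lower in 11 of 12. The exception was Sham-H replicate 6, whose ventricles ran opposite in general. The log2 difference of Rcan1 was -0.55 ± 0.16 (SE; edgeR adjusted p = 0.0174), and -0.65 ± 0.15 without the 3 animals (edgeR adjusted p = 0.00136).

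Gata6, a zinc finger factor of heart and smooth muscle, showed the reverse order. Its level was 115 ± 16.4 CPM in RV and 92.6 ± 11.2 CPM in LV (SD, n = 12 each). The RV was higher in 11 of 12 animals, and 7 RV libraries lay above every LV library. The log2 difference was 0.31 ± 0.08 (SE; edgeR adjusted p = 0.00673), and 0.37 ± 0.07 without the 3 animals (edgeR adjusted p = 0.000231). The 3 animals were picked for RV minus LV differences that ran opposite. Chamber differences without them, for Gata6 and Rcan1 alike, are therefore no independent support. Gata4, a close relative of Gata6, had -0.11 ± 0.09 and did not pass. Mef2d and Srf were lower in the RV in 11 of 12 animals each, at -0.32 ± 0.21 and -0.12 ± 0.07, and did not pass either (edgeR adjusted p = 0.307 and 0.245).

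The septum lay close to the LV for Rcan1. Between Spt and LV no member passed with edgeR or DESeq2, where 2.32% of all genes did with edgeR. None had an unadjusted p under 0.05 either, as 14% of genes had. Rcan1 had 394 ± 104 CPM in Spt and 380.1 ± 122 CPM in LV (SD, n = 12 each). Between Spt and RV 1 of 9 members passed, where 8.06% of all genes did. It was Rcan1, higher in the septum by 0.62 ± 0.16 on the log2 scale (SE; edgeR adjusted p = 0.00633) and in 11 of 12 animals. Gata6 had -0.23 ± 0.08 and narrowly missed (edgeR adjusted p = 0.0516). With the animal as a block, which pairs the chambers of a heart, Gata6 had -0.23 ± 0.07 and passed (edgeR adjusted p = 0.0180), and it also passed without the 3 animals (0.0110).

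**Figure D2:**
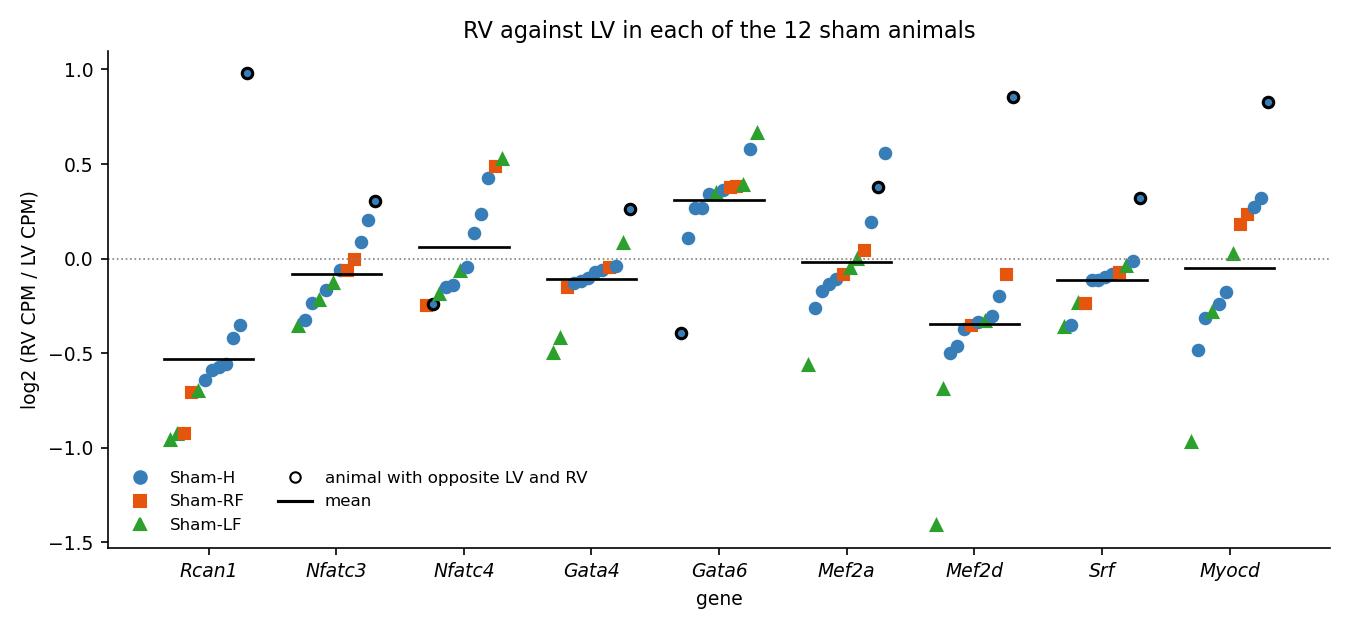
Log2 ratio of RV to LV CPM for the 9 genes in each of the 12 sham animals, with bars at the mean, a dotted line at no difference and a black outline on Sham-H replicate 6. Rcan1 lies below the line and Gata6 above it in 11 of 12 animals.

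The older shams (2 Sham-RF and 3 Sham-LF animals) were compared with the 7 Sham-H animals to look at age. No member passed with edgeR in LV, Spt or RV, where 0.0171%, 1.18% and 0.0937% of all genes did. Rcan1 was the only member with an unadjusted p under 0.05, in LV and in Spt, where 6.85% and 18.5% of genes had one, against 11.7% in RV. In LV its level was 422 and 354 CPM in Sham-RF and 574, 589 and 498 CPM in Sham-LF, and the lowest, median and highest of Sham-H were 163, 323 and 348 CPM. The 5 older libraries lay above all 7 young ones, a separation that 0.555% of genes tested showed upwards. The log2 difference was 0.65 ± 0.16 in LV (SE; edgeR adjusted p = 0.186), 0.55 ± 0.14 without the 3 animals, and 0.54 ± 0.16 within the library series that holds both ages (edgeR adjusted p = 0.559). In Spt it was 0.54 ± 0.14 (edgeR adjusted p = 0.0555), with 4 of 5 older libraries above all young ones. By DESeq2 Rcan1 passed in both (adjusted p = 0.0454 in LV and 0.0217 in Spt). In RV it had 0.15 ± 0.31 (0.23 ± 0.29 without the 3 animals), and the older libraries lay within the range of the young ones.

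Each banded group was then set against its own sham in each chamber. None of the 9 members passed in any of the 12 comparisons, with edgeR or with DESeq2. The share of all genes that passed with edgeR was 0.837% for AOB-F in LV, 0.232% for AOB-F in Spt and 0% in the other 10. An unadjusted p under 0.05 was seen in 12 of 108 member tests (11.1%) and in 6.92% of all gene tests. Of the 12, 6 were Rcan1, each with the banded group higher, and 5 of these 6 were AOB. Over all genes such a p was also more frequent in most AOB comparisons. The share was 12.7%, 12.2% and 12.9% in AOB-F LV, Spt and RV, and 4.54%, 15.9% and 0.937% in AOB-H LV, Spt and RV. Under PAB it was 8.37% in PAB-F RV and lower elsewhere. The AOB comparisons of a stage share animals across the chambers. In tissue, fewer cells of a type and less RNA per cell cannot be told apart.

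**Figure D3:**
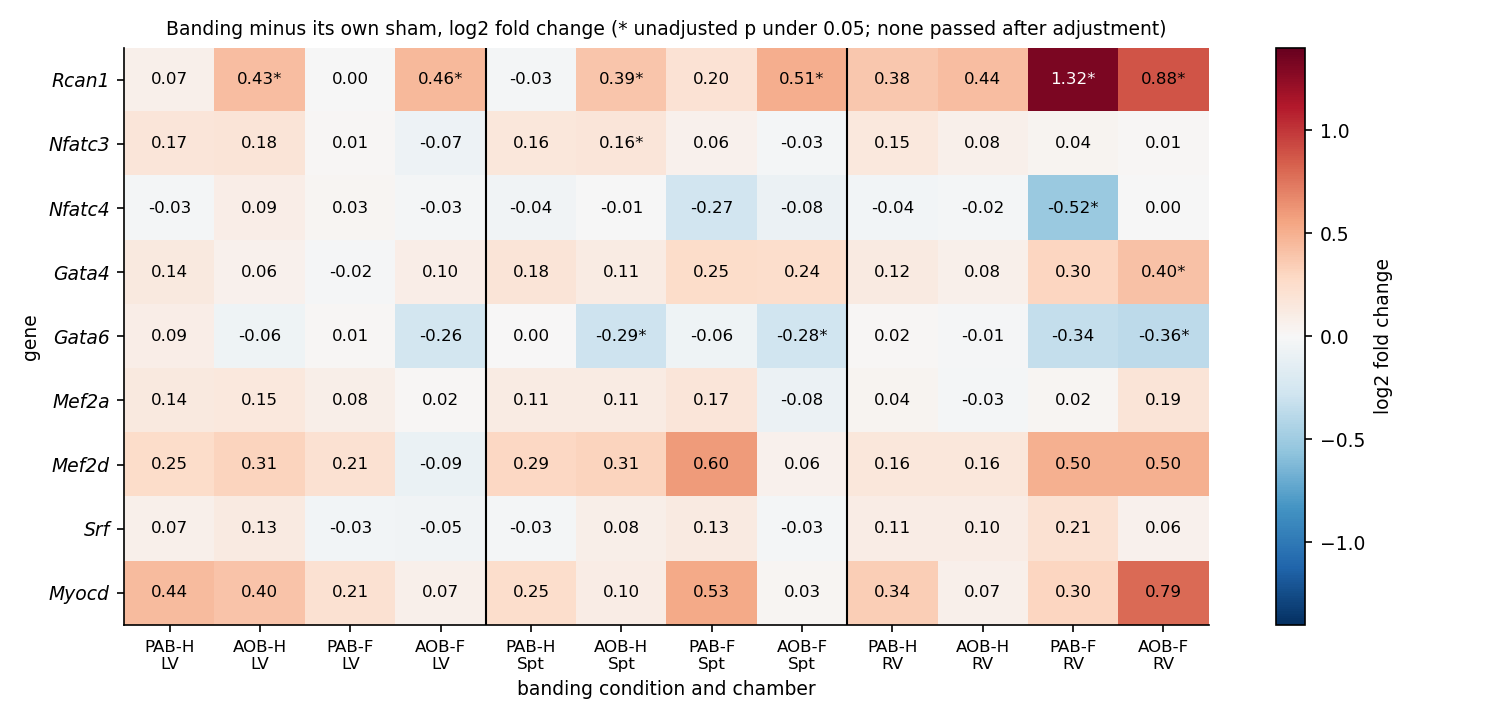
Log2 fold change of the 9 genes (rows) for each banded group against its own sham in each chamber (columns), with an asterisk at an unadjusted p under 0.05. Rcan1 holds 6 of the 12 asterisks and the highest value, 1.32 in PAB-F RV, and Mef2a, Mef2d, Srf and Myocd hold none.

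Under AOB, Rcan1 reached its highest group means in the LV and the septum at failure. In LV the AOB-F replicates 1 to 4 had 1009.5, 622, 598 and 818 CPM, and the Sham-LF replicates 574, 589 and 498 CPM. All 4 lay above all 3 shams, the lowest by a narrow margin. Rcan1 was the only member that separated upwards, as 5.91% of genes did. The log2 fold change was 0.46 ± 0.21 (SE; edgeR adjusted p = 0.357), 0.30 ± 0.21 without AOB-F replicate 1 and 0.42 ± 0.23 without replicate 4. In Spt the AOB-F values were 889.6, 628, 891 and 612 CPM and those of Sham-LF 418, 605 and 554 CPM. These groups did not overlap either, again by a narrow margin, as for 5.26% of genes upwards, and the log2 fold change was 0.51 ± 0.19 (edgeR adjusted p = 0.233).

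Markers of cell types also differed in these libraries. In LV the ventricular cardiomyocyte markers summed to 37455, 52009.6, 51748 and 41883 CPM in AOB-F replicates 1 to 4, all below the 58899, 68294 and 54817 CPM of the shams. This sum is led by Tnnt2 and Myh6 (medians of 19420 and 16020 CPM over all libraries) and is not a count of cells. Myh7, a muscle gene outside the sum, was higher in the same libraries, at 9650, 11503, 8706 and 11196 CPM against 6305, 7452 and 5814 CPM. Fibroblast markers, at 2210.4, 2257, 2202 and 2570.1 CPM, all lay above the 1873, 2015 and 1969 CPM of the shams. Macrophage markers, at 297, 227, 199.6 and 292 CPM against 174, 151 and 218 CPM, were highest in replicates 1 and 4, as Rcan1 was. In Spt the ventricular cardiomyocyte sums were 49866, 56656, 45055 and 56787 CPM, again below those of the shams at 63268, 76794 and 64736 CPM. Fibroblast sums there overlapped, at 1526, 1451.5, 1227 and 1675 CPM against 1614, 1532 and 1298 CPM. The macrophage sums there were 181, 128, 196 and 126 CPM against 126, 101 and 112 CPM, and replicates 1 and 3, with the highest Rcan1, had the lowest cardiomyocyte and the highest macrophage sums. The part of these cell types in the Rcan1 differences was not tested.

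AOB-F animals differed among themselves, and Rcan1 was high in the same libraries as Nppa. Nppa, the atrial natriuretic peptide gene and a target of GATA4, was picked for this comparison after its values were seen. In LV it was at 17453, 3715, 2179.6 and 16127 CPM in replicates 1 to 4, and replicates 1 and 4 were also the highest for Rcan1. In Spt it was at 14091, 3143, 11409.8 and 1813 CPM, and there replicates 1 and 3 were the highest for both. Replicate 4 was thus among the highest in LV and the lowest for both genes in Spt, and replicate 3 ran the other way, lowest for both in LV and among the highest in Spt. The labels of the Spt libraries of these 2 animals were kept, and whether each belongs to its animal was not tested. In LV the 3 atrial markers summed to 19.7, 29.2, 43.3 and 538 CPM in AOB-F replicates 1 to 4. The LV shams had 29.2, 36.3 and 10.3 CPM. Replicate 4 thus had the highest atrial sum in LV, while replicate 1, with the highest Nppa there, had the lowest. In Spt the atrial sums were 16.6, 165, 16.6 and 237 CPM, against 382, 13.2 and 30.1 CPM. The part of atrial tissue in the Nppa values was not tested.

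In the RV of AOB-F animals Rcan1 was at 786, 215, 259.7 and 969.7 CPM in replicates 1 to 4, and the 3 Sham-LF libraries at 302, 302 and 306 CPM lay between. Replicates 1 and 4 were above all shams and replicates 2 and 3 below all of them. The log2 fold change of 0.88 ± 0.41 (SE; edgeR adjusted p = 0.369) was 0.47 ± 0.40 without replicate 4 and 0.87 without Sham-LF replicate 1, whose label fields disagree on its column. Gata4 had 124, 82.8, 101 and 144 CPM in the 4 animals, Myocd 31.9, 12.3, 14.7 and 35.2 CPM and Srf 113, 85.4, 86.3 and 117 CPM, each with replicates 1 and 4 highest. Gata6 had 81.2, 109, 123 and 91.7 CPM and Nfatc4 10.2, 13.9, 15.6 and 9.50 CPM, with replicates 1 and 4 lowest. Nfatc3, Mef2a and Mef2d ranged over 43.6 to 47.7, 46.9 to 63.3 and 26.9 to 47.6 CPM. In Sham-LF RV Gata4 ranged over 75.3 to 106 CPM, Myocd over 10.3 to 19.5 CPM and Srf over 88.9 to 109 CPM. Gata6 ranged there over 109 to 149 CPM and Nfatc4 over 11.2 to 14.6 CPM. How many of all genes split the AOB-F animals this way was not counted. Nppa was at 6034, 1390.5, 97.1 and 8530.2 CPM in AOB-F replicates 1 to 4. The 7 ventricular cardiomyocyte markers summed to 46358, 72804, 73294 and 50552 CPM, against 82467, 76341 and 71514 CPM in the shams, and the 3 atrial markers to 36.5, 814, 121 and 28.9 CPM against 87.2, 86.2 and 931 CPM. Macrophage markers summed to 197, 129.8, 120.0 and 177 CPM, against 132, 148 and 126 CPM. Replicates 1 and 4 had the lowest cardiomyocyte and the highest macrophage sums, and the part of these markers in the Rcan1 values was not tested.

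At the compensated stage Rcan1 did not pass in AOB-H, and its levels in LV and Spt overlapped with those of Sham-H, with higher medians. In LV the lowest, median and highest levels were 324, 399 and 563 CPM in AOB-H and 163, 323 and 348 CPM in Sham-H. In all, 5 of 7 AOB-H libraries exceeded every Sham-H library, and the lowest Sham-H library belonged to replicate 6. The log2 fold change was 0.43 ± 0.15 (SE; edgeR adjusted p = 0.956), and 0.36 ± 0.13 without the 3 animals (edgeR adjusted p = 0.640). Within library series 1, 2 and 3 it was 0.20 ± 0.10, 0.55 ± 0.17 and 0.49 ± 0.31. In Spt the levels were 338, 394 and 548 CPM in AOB-H and 278, 335 and 374 CPM in Sham-H, with 5 of 7 above every sham and a log2 fold change of 0.39 ± 0.13 (edgeR adjusted p = 0.232). An unadjusted p under 0.05, which Rcan1 had in both, was found for 4.54% of genes in LV and 15.9% in Spt, and 0% of genes passed. How many of all genes had as many libraries above every sham was not counted. Whether the AOB response grew from compensation to failure was tested directly: the difference for Rcan1 was 0.03 ± 0.26 in LV and 0.12 ± 0.23 in Spt (log2, SE), and no member and 0% of genes passed. In LV the difference was 0.10 ± 0.22 without the 3 animals and turned sign without AOB-F replicate 1 (-0.13) and without some other single animals. No member had an unadjusted p under 0.05 there, as 7.6% of genes had in LV and 2.92% in Spt, and none passed with DESeq2.

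Under PAB, the failing RV gave the highest fold change of any member. Rcan1 was at 330.2, 762 and 563 CPM in PAB-F and at 222 and 217 CPM in Sham-RF. All 3 lay above both shams, which were nearly equal, as 16.9% of genes separated upwards between 3 and 2 animals. The log2 fold change was 1.32 ± 0.50 (SE), 2.50-fold, with an edgeR adjusted p of 0.524. In the LV of these animals Rcan1 was at 323, 431 and 408 CPM against 422 and 354 CPM, with overlap and a log2 fold change of 0.00 ± 0.25. The response in RV minus that in LV was 1.33 ± 0.50 on the log2 scale, with an unadjusted p of 0.00888 and an edgeR adjusted p of 0.988. No member, with edgeR or DESeq2, and 0% of all genes passed in the 4 tests of a response between chambers. Besides Rcan1, Nfatc4 had an unadjusted p under 0.05 in that of PAB-F, as 4.89% of genes had.

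Marker genes varied in the same PAB-F libraries. The ventricular cardiomyocyte markers summed to 65658, 54011 and 53279 CPM in replicates 1 to 3 and to 69814 and 71159 CPM in the shams. The atrial markers summed to 42.1, 16.3 and 1776 CPM, against 13.8 and 49.5 CPM. Replicate 3 stood out in the atrial sum, while replicate 2, with the highest Rcan1 level, was within the range of the shams. Endothelial markers summed to 1036, 688 and 705 CPM, against 1013 and 1041 CPM, and macrophage markers to 107, 212 and 202 CPM, against 139 and 141 CPM. Replicates 2 and 3, the higher for Rcan1, had endothelial sums below and macrophage sums above both shams. Their part in the Rcan1 difference was not tested.

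At the compensated stage in RV, PAB-H had a lowest, median and highest Rcan1 level of 183, 339.8 and 438 CPM and Sham-H of 192, 234 and 322 CPM. The log2 fold change was 0.38 ± 0.28 (SE; edgeR adjusted p = 1.000), with 4 of 7 libraries above every sham and 1 below, and 0.36 ± 0.28 without the 3 animals. AOB-H in RV had 233, 269 and 611 CPM, and its highest library was that of replicate 1. The log2 fold change there was 0.44 ± 0.28, and 0.28 ± 0.28 without the 3 animals. In the chambers that PAB does not load directly, PAB-H had 249, 314 and 438 CPM in LV and 253, 302 and 440.5 CPM in Spt, with log2 fold changes of 0.07 ± 0.15 and -0.03 ± 0.13. Without the 3 animals the LV value was -0.03 ± 0.13, of the opposite sign. In PAB-F Spt the values were 432, 529.8 and 480.1 CPM against 482 and 358 CPM, with overlap and 0.20 ± 0.23.

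**Figure D4:**
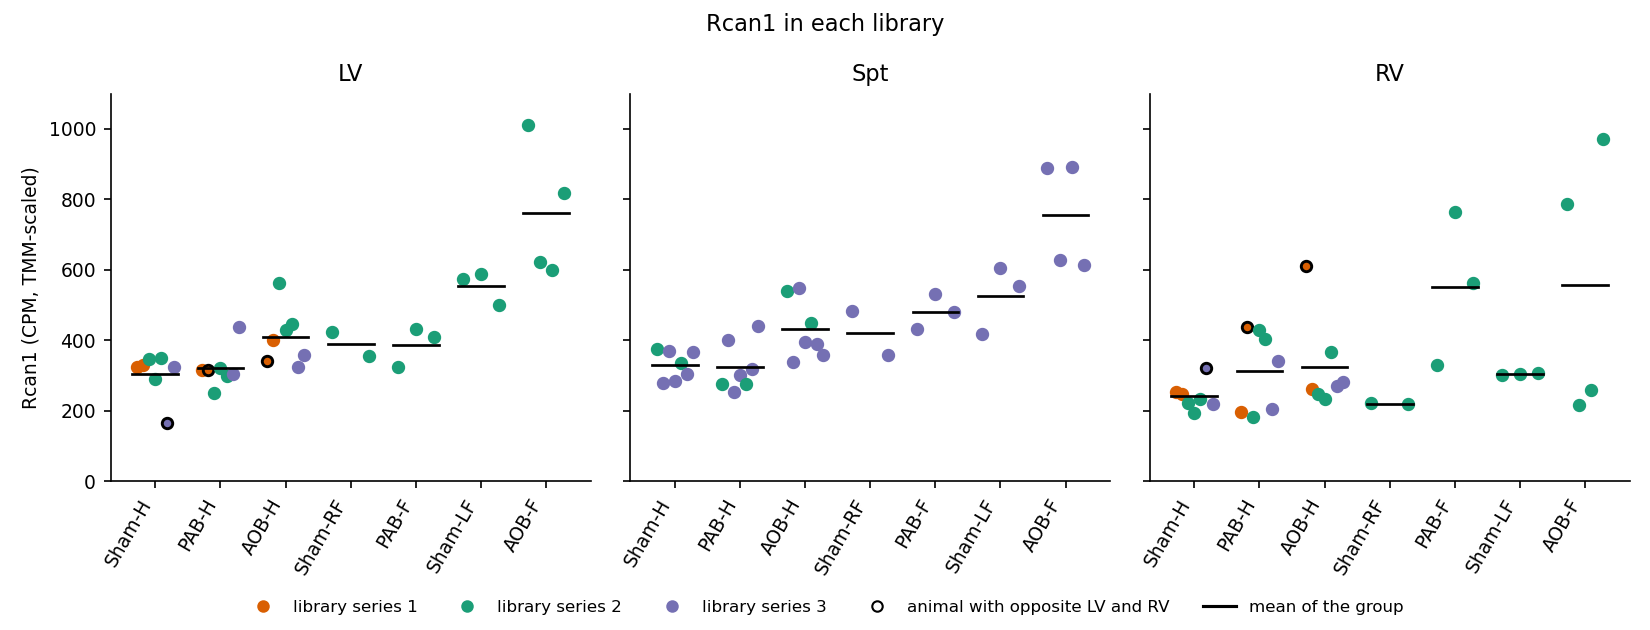
Rcan1 CPM in each of the 99 libraries by chamber and condition, coloured by library series, with bars at group means and a black outline on LV and RV libraries of the 3 animals whose ventricles ran opposite. In LV and Spt the 4 AOB-F libraries lie above the Sham-LF libraries, and in RV they lie on both sides of them.

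Over all 21 groups the Rcan1 means ran from 762 ± 192 CPM in AOB-F LV and 755 ± 156 CPM in AOB-F Spt down to 241 ± 40.9 CPM in Sham-H RV and 219.7 ± 3.38 CPM in Sham-RF RV (SD). AOB-F RV (558 ± 378 CPM), Sham-LF LV (554 ± 48.4 CPM) and PAB-F RV (552 ± 216 CPM) came next and could not be ordered. Of the 20 pairs of neighbours, 1 was separated by more than the larger SD, PAB-F LV (387 ± 56.5 CPM) above Sham-H Spt (330.2 ± 41.5 CPM).

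The NFAT genes, which encode the factors that calcineurin dephosphorylates, had no call in any comparison. Nfatc3 had log2 fold changes of -0.07 to 0.18 over the 12 banding comparisons. Its lowest unadjusted p, 0.0425, belonged to 0.16 ± 0.08 in AOB-H Spt (edgeR adjusted p = 0.301). Nfatc4 had its strongest difference in PAB-F RV, at 10.8, 8.86 and 8.66 CPM against 15.8 and 11.3 CPM in Sham-RF. All 3 lay below both shams, as 18.5% of genes separated downwards, and the log2 fold change was -0.52 ± 0.22 (SE; edgeR adjusted p = 0.545). It was -0.25 without Sham-RF replicate 1 and -0.73 without Sham-RF replicate 2. In PAB-F Spt it also separated downwards, at 10.6, 11.1 and 10.5 CPM against 12.6 and 13.4 CPM, as 21.3% of genes did.

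Gata4, which partners NFAT on cardiac promoters, had a positive log2 fold change in 11 of 12 banding comparisons, from -0.02 to 0.40. The top value was in AOB-F RV (0.40 ± 0.18, SE; edgeR adjusted p = 0.367), and it was 0.26 ± 0.19 without AOB-F replicate 4. In PAB-F RV its level was 92.4, 101 and 111 CPM against 78.2 and 85.4 CPM, without overlap, as 16.9% of genes separated upwards, and with a log2 fold change of 0.30 ± 0.21 (edgeR adjusted p = 0.707). The AOB-H and PAB-H comparisons share their 7 shams, and the chambers come from the same animals. How many of all genes were positive as often was not counted.

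Gata6 had lower means in the AOB-F groups than in their shams, and no difference passed. Its log2 fold changes over the 12 banding comparisons were -0.36 to 0.09, and 3 had an unadjusted p under 0.05. These were AOB-F Spt, AOB-F RV and AOB-H Spt, where 12.2%, 12.9% and 15.9% of all genes had one. The AOB-F chambers come from the same animals. In LV its level was 78.9 ± 9.05 CPM in AOB-F and 94.3 ± 11.4 CPM in Sham-LF (SD, n = 4 and 3). In RV it was 101 ± 18.4 and 131 ± 20.7 CPM, and the groups overlapped in LV and in RV. In Spt it was at 88.1, 85.0, 86.6 and 93.8 CPM in AOB-F and 96.8, 116 and 106 CPM in Sham-LF. The groups did not overlap, as for 4.5% of genes downwards, and the log2 fold change was -0.28 ± 0.13 (SE; edgeR adjusted p = 0.385). In AOB-H Spt it was -0.29 ± 0.09 (edgeR adjusted p = 0.224), with 3 of 7 libraries below every sham. Within library series 2 and 3 this was -0.58 ± 0.22 and -0.15 ± 0.09. In PAB-F RV Gata6 was at 102, 84.3 and 86.6 CPM against 114 and 115 CPM, below both shams as 18.5% of genes were, with -0.34 ± 0.19 (edgeR adjusted p = 0.640). Over the 99 libraries Pearson's r of log2 CPM between Rcan1 and Gata6 was -0.53, a description of libraries that share animals and groups.

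Mef2a, Mef2d and Myocd varied with the library series. Library numbers in the labels form 3 runs, and at the compensated stage replicates 1 and 2 of LV and RV belong to the first. In LV Myocd was at 6.35 to 10.0 CPM in the 6 libraries of series 1 and at 11.8 to 31.8 CPM in the other 15. Mef2a was at 32.1 to 38.1 CPM against 52.2 to 91.5 CPM. Neither overlapped, as 13.6% of genes lay wholly lower in series 1. Mef2d was at 22.9 to 32.0 CPM against 31.0 to 87.5 CPM and overlapped narrowly.

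The mean log2 difference of series 1 from the other series in LV was -1.04 for Mef2a, -1.21 for Mef2d, -1.43 for Myocd and -0.47 for Nfatc3. In RV it was -0.76, -0.94, -1.26 and -0.36. Srf (-0.17 in LV and -0.10 in RV) and Rcan1 (-0.04 and 0.28) differed less. Sham-H, PAB-H and AOB-H each hold 2 animals of series 1, so it is balanced over the surgery, and with series as a covariate no member passed in a banding comparison. Series 1 is not balanced over the chambers, as it holds no Spt library.

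**Figure D5:**
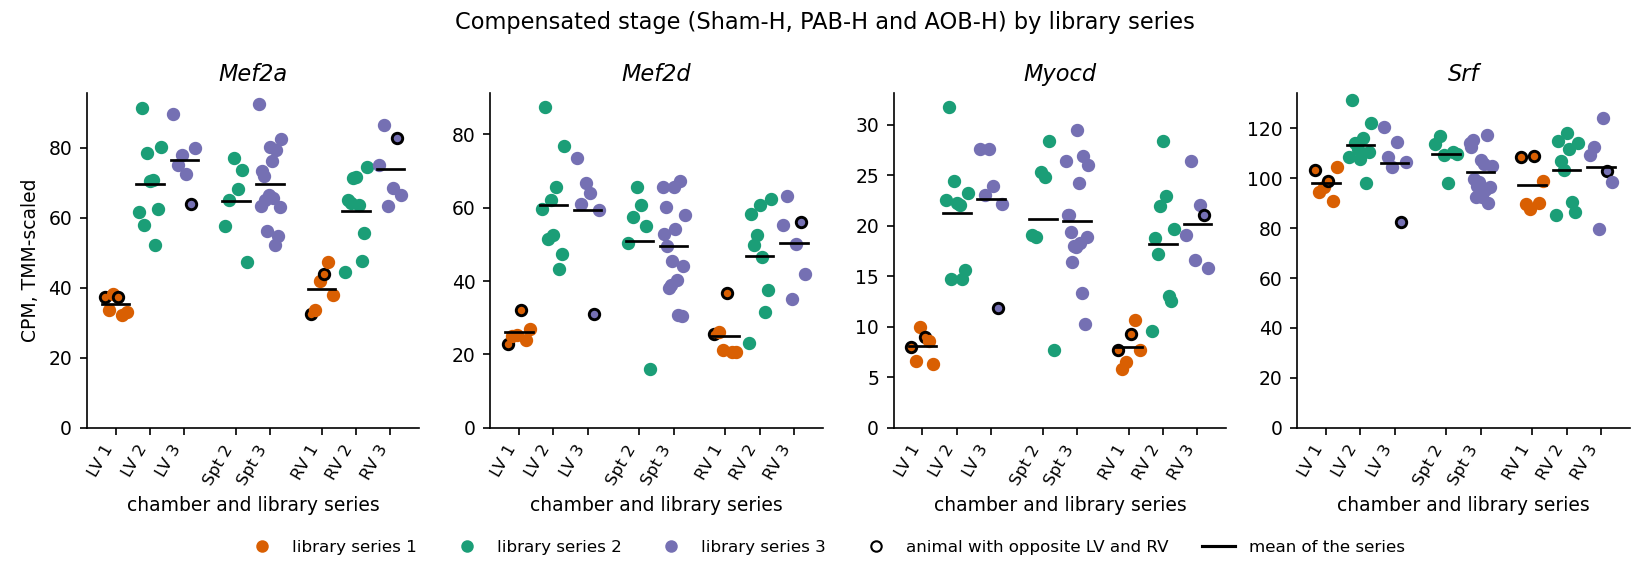
CPM of Mef2a, Mef2d, Myocd and Srf in the 63 libraries of the compensated stage by chamber and library series, with bars at the means and a black outline on LV and RV libraries of the 3 animals whose ventricles ran opposite. In LV and RV the means of series 1 are the lowest for Mef2a, Mef2d and Myocd, with some overlap in RV, and for Srf the series overlap widely.

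Within groups, the SD of log2 CPM was 0.60 for Myocd, 0.53 for Mef2d, 0.39 for Rcan1 and 0.37 for Mef2a, beside a median of 0.24 over all genes tested and 0.16 for Srf. Mef2d, a MADS-box factor held back by class II histone deacetylases, spanned 16.0, 44.0 and 67.3 CPM (lowest, median, highest) in Sham-H Spt alone. In PAB-F Spt it was at 51.7, 47.0 and 46.0 CPM against 35.8 and 27.9 CPM in Sham-RF, and Myocd at 26.2, 21.2 and 24.0 CPM against 17.0 and 15.9 CPM. With Gata4 and Mef2a, 4 members separated upwards there, as 21.4% of genes did. The log2 fold changes were 0.60 ± 0.37 and 0.53 ± 0.37 (SE; edgeR adjusted p = 0.816 and 0.816). In a fit of these 5 libraries alone both passed (edgeR adjusted p = 0.0148 and 0.0239), as did 792 genes in all.

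Mef2d was also above both shams in PAB-F RV, at 37.3, 39.6 and 52.8 CPM against 27.0 and 34.1 CPM, as 16.9% of genes were. Over the 12 banding comparisons the log2 fold changes were -0.08 to 0.19 for Mef2a, -0.09 to 0.60 for Mef2d, -0.05 to 0.21 for Srf and 0.03 to 0.79 for Myocd (positive in 12 of 12), and no unadjusted p was under 0.05. The top value of Myocd was 0.79 ± 0.48 in AOB-F RV. The 12 comparisons share animals and shams, and how many of all genes kept the same sign throughout was not counted. Srf was at 102, 119 and 129 CPM in PAB-F RV and 97.1 and 104 CPM in Sham-RF RV, with overlap and a log2 fold change of 0.21 ± 0.17.

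The wider pathway was read from lists of related genes. None of the 16 calcineurin subunits and regulators tested (15 in Spt) and none of the 10 other NFAT genes and NFAT kinases passed in the 12 banding comparisons. At an unadjusted p under 0.05, where 6.92% of all gene tests fell, these lists had 8 of 188 and 4 of 120 tests. The 13 MEF2 repressors and their kinases had 6 of 156, and the 19 partners of GATA, SRF and myocardin 16 of 228, again with no call. The 18 known targets in muscle had 44 of 216, with 28 higher and 16 lower. Of them 2 passed in AOB-F LV, where 0.837% of all genes did, and 1 in AOB-F Spt, where 0.232% did, each of them higher. The median log2 fold change of the targets was 0.08 in AOB-F LV and 0.14 in AOB-F Spt, beside 0.01 and -0.01 over all genes tested.

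The targets that passed were Xirp2, an actin-binding protein gene under MEF2 control, and Nppa. Xirp2 had 1905 ± 1152 CPM in AOB-F LV (SD, n = 4) and 569.8 ± 80.3 CPM in Sham-LF LV (n = 3), with a log2 fold change of 1.74 ± 0.39 (SE; edgeR adjusted p = 0.0338). In AOB-F Spt it rose by 1.53 ± 0.33 (edgeR adjusted p = 0.0411). Nppa had 9869 ± 8035 CPM against 745 ± 123 CPM in LV, with 3.73 ± 0.93 (edgeR adjusted p = 0.0472). The AOB-F LV library of replicate 4, with the high atrial sum given above, is among those compared. These calls depended on the settings and on single libraries. In LV Xirp2 passed under 6 of 9 alternatives and Nppa under 4 of 9, and in Spt Xirp2 passed under 5 of 8. With 1 library left out each passed in 2 of 7 fits, which were those without AOB-F replicate 2 or 3 in LV and those without AOB-F replicate 2 or 4 in Spt. The lowest log2 fold changes were 1.44 for Xirp2 and 3.30 for Nppa in LV and 1.24 for Xirp2 in Spt when 1 library was left out. Hopx, a repressor of SRF, was next among the partners at 1.01 ± 0.26 (edgeR adjusted p = 0.0567), and the calcineurin-binding Myoz1 led its list at 0.50 ± 0.31 (edgeR adjusted p = 0.572).

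In PAB-F RV no list had a call. Xirp2 had 1.82 ± 0.66, Nppa 6.23 ± 2.36 and the kinase gene Camk2b 1.03 ± 0.39 on the log2 scale (edgeR adjusted p = 0.524 for each). The NFAT kinase genes Gsk3a and Dyrk1b had 0.26 ± 0.12 and 0.50 ± 0.23, and Ppp3ca, a catalytic subunit of calcineurin, -0.25 ± 0.13 (edgeR adjusted p = 0.566, 0.578 and 0.613).

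Listed genes also passed between sham groups. Camk2b was higher in the older septum by 0.85 ± 0.18 (edgeR adjusted p = 0.0331), and passed in 6 of 12 fits that left out an animal. In RV against LV 8 of 76 listed genes passed, beside 10.2% of all genes, and in Spt against RV 8 of 76, beside 8.06%, shares near the background. Hopx, the SRF partner gene Elk3, the kinase gene Prkd2 and the natriuretic peptide gene Nppb were lower in RV in both comparisons, like Rcan1, and Zfpm2, a cofactor of GATA4, was higher. Hopx had 61.1 ± 12.2 CPM in RV and 104 ± 23.3 CPM in LV (SD, n = 12 each), a log2 difference of -0.74 ± 0.19 (SE; edgeR adjusted p = 0.00675). Nppb had -1.42 ± 0.32 and Zfpm2 0.23 ± 0.07 (edgeR adjusted p = 0.00349 and 0.0305). The NFAT kinase gene Dyrk2 was higher and Dyrk1b and Gsk3a lower in RV than in LV, and Fkbp1a, Gata2 and Myh7 were higher in Spt than in RV. With 1 animal left out, Elk3, Zfpm2 and Prkd2 passed in 7, 4 and 5 of 12 fits in RV against LV, and Fkbp1a, Gata2 and Myh7 in 2, 6 and 5 of 12 in Spt against RV.

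Genes with the most similar pattern were sought over the 21 group means of log2 CPM, with Pearson's r given over the means and then over the 99 libraries. Rcan1 was most like Rnd1 (0.96 and 0.91) and Chrna1 (0.96 and 0.85). Nfatc3 was most like Gosr1 (0.86 and 0.82) and Mapk9 (0.85 and 0.81), and Nfatc4 like Cyp2d4 (0.82 and 0.62) and Car2 (0.80 and 0.60). Gata4 resembled Kank2 (0.91 and 0.79) and Slc16a1 (0.87 and 0.82), and Gata6 resembled Timm9 (0.96 and 0.72) and Trmt10c (0.95 and 0.86). Mef2a went with Cflar (0.89 and 0.84) and Dnmt3a (0.89 and 0.89), and Mef2d with Tom1l2 (0.98 and 0.98) and Lpgat1 (0.98 and 0.97). Srf went with Slc17a7 (0.86 and 0.63) and Man1a1 (0.81 and 0.67), and Myocd with Zfyve16 (0.91 and 0.89) and Aak1 (0.91 and 0.90). Among the members r over 99 libraries was 0.87 for Mef2a with Myocd, 0.82 for Mef2d with Myocd and 0.82 for Mef2a with Mef2d. These libraries share animals, groups and library series.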

How the data were processed

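The authors extracted RNA with TRIzol, prepared polyA libraries and processed the reads with Trim Galore, STAR (Rnor6.0, UCSC annotation), featureCounts with multiple overlaps disabled, and DESeq2. The strand setting is not given in the sources used here. The deposited table holds raw counts, the authors' normalized counts (a signal: counts over one size factor per library) and deposited FPKM (the normalized count over a constant per gene) for 17337 genes in 99 libraries. Result sheets of the authors' own comparisons were not used.

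Raw counts were tested here with edgeR 4.0.16 (TMM, filterByExpr, quasi-likelihood test, Benjamini-Hochberg threshold 0.05) in R 4.3.3, across all genes: 1 fit of 33 libraries per chamber for banding, age and stage, and 1 fit of 99 libraries between chambers. DESeq2 1.42.0, RLE factors, no filter, library series, replicate or animal blocks, subsets and leaving out each replicate were alternatives. The script was tested on simulated data. Likeness used log2(CPM + 0.01). No 2 libraries were identical. The members, lists and tests were chosen with earlier results of these data known, and the ranking of the chamber check was changed after its first result was seen. Named genes were the members, listed genes that passed, the 2 with the lowest p per list in AOB-F LV and PAB-F RV, and the 2 most alike genes. Some label fields conflict: several RV samples also carry the tissue left ventricle, and the description of the RV library of Sham-LF replicate 1 names a PAB sham column, and the titles were followed. Between replicate numbers the correlation of deviations was not above 0.1 in every pair, so numbers were not taken as pairs. Chambers of 1 animal are paired, but the reported fits between chambers held no term for the animal. The animal as a block was an alternative, and counts of animals with a higher or lower chamber were taken within animals.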

Additional observations from a re-analysis of the deposited data

Results flagged for a closer look

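Of 108 groups of 4 or more libraries and members examined, 7 held a library far from the rest by Dixon's criterion, and chance alone marks about 1 in 20 groups. Rcan1 was low in the LV of Sham-H replicate 6, at 163 CPM beside 289 to 348 CPM in the other 6, and Gata6 was low in its RV, at 81.6 CPM beside 104 to 120.1 CPM. Rcan1 was high in the RV of AOB-H replicate 1, at 611 CPM beside 233 to 365 CPM. These 3 libraries belong to animals whose RV minus LV differences ran opposite to the others. Rcan1 was high in the LV of PAB-H replicate 7, at 438 CPM beside 249 to 319 CPM. Sham-H replicate 5 was high in Gata4 in LV, at 124 CPM beside 78.4 to 92.7 CPM, and in RV, at 115 CPM beside 82.3 to 93.9 CPM. The same animal was high in Gata6 in Spt, at 129 CPM beside 72.1 to 94.2 CPM.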

How the results depend on the processing

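Rcan1 and Gata6 in RV against LV, and Rcan1 in Spt against RV, passed under all 6 alternatives and in 12 of 12 fits that left out a sham animal. The number of members that passed changed as follows. With DESeq2 it was 1 instead of 0 for older shams in LV, 1 instead of 0 for older shams in Spt, and 2 instead of 1 in Spt against RV. In the last it was also 2 without the 3 animals and 2 with the animal as a replicate block. It was 2 instead of 0 for PAB-F Spt when only the libraries compared were fitted. Leaving out 1 replicate gave 0 to 1 for AOB-H Spt (1, Gata6, without AOB-H replicate 6), 0 to 1 for older shams in Spt (1, Rcan1, without Sham-H replicate 5 or Sham-LF replicate 3) and 1 to 2 in Spt against RV (2 without Sham-H replicate 5, Sham-H replicate 6 or Sham-LF replicate 3).

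Results with an unadjusted p under 0.05 or without overlap kept their sign under the alternatives run. Values of Rcan1 near 0 did not. In PAB-H LV (log2) it was -0.0278 without the 3 animals, -0.0504 in series 1, -0.18 in series 2 and -0.0345 to 0.125 with 1 replicate left out. In PAB-F LV it was 0.00427 with DESeq2, 0.00430 with RLE factors, 0.00439 without a filter, 0.00830 without the 3 animals, 0.0120 in series 2, 0.00962 with only the libraries compared and -0.118 to 0.128 with 1 left out. In PAB-H Spt it was 0.0973 in series 3 and -0.118 to 0.0201 with 1 left out. The stage difference under AOB ranged over -0.134 to 0.137 in LV and -0.00778 to 0.240 in Spt with 1 left out. Over all members and comparisons, most of them near 0, signs changed: the direction stayed in 230 of 234 values with DESeq2, 231 of 234 with RLE factors, 230 of 234 without a filter, 221 of 234 with series as a covariate, 160 of 171 without the 3 animals, 2458 of 2682 when 1 replicate was left out, and 29 of 36, 96 of 108 and 70 of 81 within series 1, 2 and 3. With the replicate number as a block it stayed in 101 of 108 and no member passed, and the Rcan1 value in AOB-F RV was 0.21 (edgeR adjusted p = 0.845). Numbers correlated best with their own partner in 0 to 2 replicates per comparison.

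Genes that passed over the whole table varied more: 0 to 366 for AOB-F LV (98 as reported) over the alternatives and 0 to 636 when 1 replicate was left out. In the same order (as reported, alternatives, 1 replicate left out) the counts were 27, 0 to 234 and 0 to 234 for AOB-F Spt, 137, 23 to 317 and 3 to 1125 for older shams in Spt, 11, 0 to 229 and 2 to 16 for older shams in RV, 1219, 981 to 2425 and 540 to 2159 for RV against LV, 277, 249 to 1041 and 133 to 405 for Spt against LV, 961, 856 to 1543 and 587 to 1282 for Spt against RV, 0, 0 to 2 and 0 to 92 for AOB-H Spt, 0, 0 to 76 and 0 to 4 for AOB-F RV, and 0, 0 to 792 and 0 to 0 for PAB-F Spt. With 2 to 4 animals per group at failure, Rcan1 ranged over 1.03 to 1.60 in PAB-F RV, 0.30 to 0.56 in AOB-F LV and 0.47 to 1.13 in AOB-F RV (log2) when 1 replicate was left out.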
